A study of Mus musculus with 9 samples.

Results

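The genes described here encode 10 sensors and adaptors of foreign nucleic acid: the cytosolic RNA helicases *Ddx58* (RIG-I), *Ifih1* (MDA5) and *Dhx58* (LGP2), the endosomal RNA receptor *Tlr3*, the Z-nucleic acid receptor *Zbp1*, the adaptors *Mavs* and *Tmem173* (STING), the kinase *Tbk1*, and the transcription factors *Irf3* and *Irf7*. The rule lists them by name and uses no measured value, but they were picked with earlier results of these data known. All 10 were listed in each of the 3 deposited tables, which hold 14819 genes for LacZ and Nrf1, 14986 for LacZ and Nrf2, and 14908 for Nrf1 and Nrf2. All 10 also passed the filter on low values, a mean of at least 10 in 1 group or both, in every comparison. In the 2 comparisons with Nrf1 cells, *Zbp1* passed only through the other group, where it was higher. Its means in Nrf1 cells were 2.13 and 2.38. These calls of *Zbp1* are included in the counts below. *Tlr3* is not a cytosolic receptor, since its protein resides in endosomes, and it is described apart from the helicases.

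Neonatal rat ventricular cardiomyocytes (NRVMs), a primary culture from the hearts of Sprague Dawley pups aged 1 or 2 days, were kept in culture for 48 h and then infected with adenovirus at a multiplicity of infection of 50. The virus carried lacZ (a bacterial enzyme, the control), mouse Nrf1 or mouse Nrf2 under the CMV promoter, which is not restricted to cardiomyocytes, together with a red fluorescent protein, and RNA was sequenced 48 h after infection, with 3 libraries per group. Nrf1 and Nrf2 are related stress-responsive transcription factors, and the study compared their effects with LacZ and with each other. All 3 groups received an adenoviral vector and no uninfected cells are among the samples, so the LacZ levels are those of infected cells and not of resting ones. The labels do not say whether the libraries of a group came from separate cultures, so p-values measure the spread between these libraries, which may be technical.

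RIG-I binds short double-stranded RNA and RNA with an uncapped 5′ end, and MDA5 binds long double-stranded RNA. Both signal through MAVS on mitochondria. STING is engaged downstream of the DNA sensor cGAS. Both adaptors activate TBK1, which phosphorylates IRF3 and IRF7, and these induce type I interferon. Interferon in turn raises the transcription of several sensors and of IRF7 through factors that include STAT2 and IRF9, whereas MAVS, TBK1 and IRF3 are present in most cells without it. Adenovirus, a DNA virus, can engage several of these receptors.

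The deposited tables give 1 mean per gene and group. Whole read counts of the single libraries were recovered from these means, as 14442 genes could be solved in all 9 libraries, with totals between 7874370 and 11905027 reads. Levels are given below as reads per 1000000 recovered reads (RPM) in the 3 libraries of a group, called a, b and c. RPM values are not comparable between genes because they are not divided by length. Log2 fold changes are limma estimates on log2(size-factor-normalised count + 1) with their standard errors (SE, n = 3 libraries per group), adjusted p-values are Benjamini-Hochberg values over all genes tested, and a gene was called when the adjusted p was under 0.05 and the fold above 1.5. As a check of the labels, *Nfe2l2*, the gene for Nrf2, had 369.6, 368.5 and 374.3 RPM in LacZ libraries, 289.3, 296.0 and 294.0 in Nrf1 libraries, and 7986, 7830 and 6831 in Nrf2 libraries. The gene for Nrf1 was not analysed here.

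In Nrf1 cells 6 of the 10 genes were lower than in LacZ cells and 1 was higher, where 17.0% of the 11433 genes tested were called lower and 11.2% higher. In Nrf2 cells the count was 6 lower and 0 higher, where 9.61% of 11602 genes were called lower and 9.13% higher. *Ddx58*, *Ifih1*, *Dhx58*, *Tlr3*, *Zbp1* and *Irf7* fell in both comparisons, which share the LacZ libraries. *Tbk1* rose in Nrf1 cells. In Nrf2 cells limma gave *Mavs* and *Tbk1*, 2 of the 10 genes, as higher at an unadjusted p under 0.05, where 30.8% of genes tested were, and voom called 0 higher as well. *Mavs*, *Tmem173* and *Irf3* were called in neither comparison. By the ratio of the authors' group means alone, the same 6 genes were more than 1.5-fold lower in each comparison and *Tbk1* higher in Nrf1 cells, where 18.1% of genes were lower and 11.9% higher in Nrf1 cells, and 10.9% lower and 9.78% higher in Nrf2 cells. An adjusted p under 0.05, whatever the fold, was reached by 9 of the 10 genes in Nrf1 cells, all but *Mavs*, where 67.0% of genes tested reached it, and by 7 of 10 in Nrf2 cells, where 55.2% did. The median log2 fold change over the 10 genes was -2.01 in Nrf1 cells and -1.18 in Nrf2 cells, beside 0.0032 and -0.0019 over all genes tested. In bulk RNA, fewer cells of a type and less RNA per cell cannot be told apart.

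**Figure D1:**
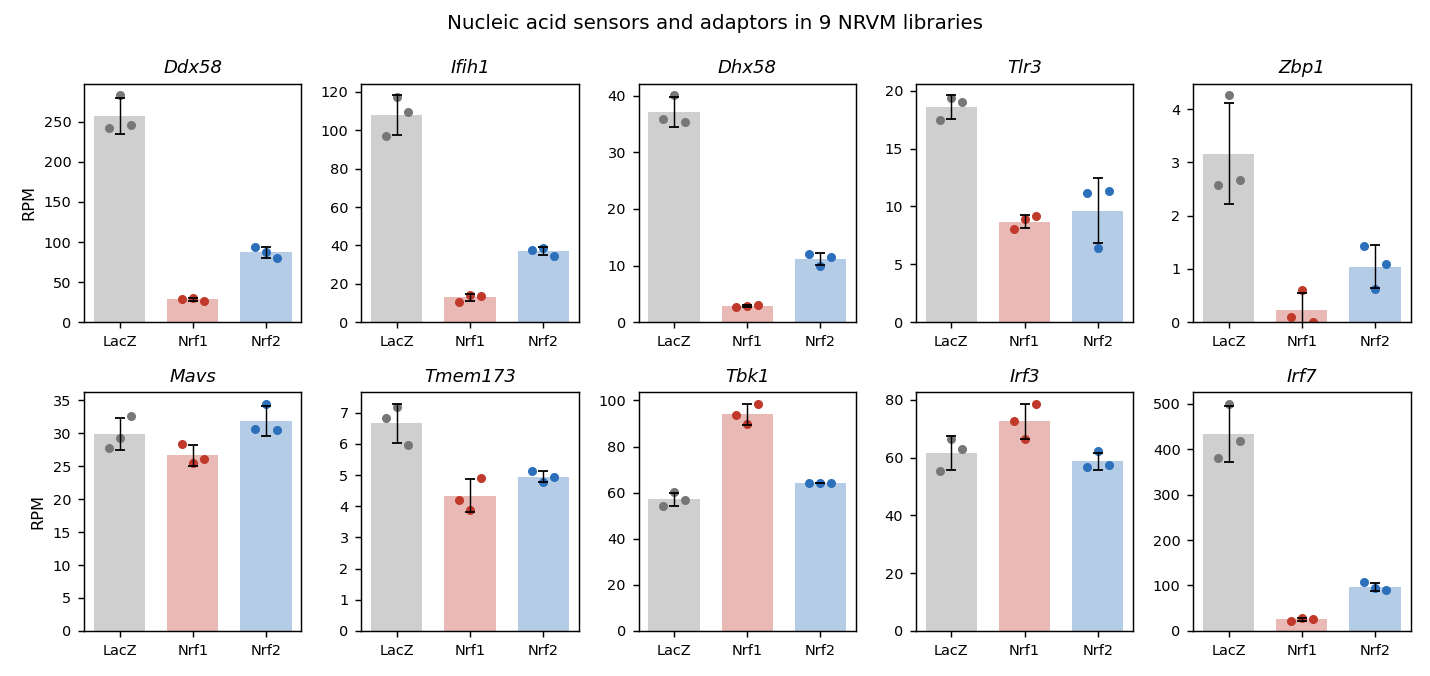
RPM (linear axes from 0, each with its own scale) of the 10 genes in the 3 libraries of the LacZ, Nrf1 and Nrf2 groups. Points are libraries, bars are group means and error bars are SD (n = 3). *Ddx58*, *Ifih1*, *Dhx58* and *Irf7* are highest in LacZ, lowest in Nrf1 and between them in Nrf2 with no overlap of libraries, whereas *Tbk1* is highest in Nrf1. Between pairs of groups, 63.6% to 70.1% of all genes tested showed no overlap.

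The 3 RNA helicases each separated the groups without overlap. Of all genes tested, 70.1% showed no overlap between Nrf1 and LacZ, 63.6% between Nrf2 and LacZ and 64.1% between Nrf2 and Nrf1. These shares serve for each mention of overlap below. The share that separates all 3 groups at once was not computed. *Ddx58*, which encodes the receptor for short double-stranded and uncapped RNA, had 243, 284 and 246 RPM in LacZ libraries, 28.8, 30.3 and 26.7 in Nrf1 libraries, and 94.1, 87.6 and 79.4 in Nrf2 libraries. Every LacZ library was above every Nrf2 library, and every Nrf2 library above every Nrf1 library. The log2 fold change was -3.10 (SE 0.061, adjusted p = 3.957e-20) in Nrf1 cells and -1.48 (SE 0.066, adjusted p = 7.657e-10) in Nrf2 cells.

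*Ifih1*, the receptor for long double-stranded RNA, had 97.0, 118 and 110 RPM in LacZ libraries, 10.7, 14.3 and 13.8 in Nrf1 libraries, and 37.6, 38.6 and 34.7 in Nrf2 libraries. The 3 groups again did not overlap and stood in the same order. Its log2 fold change was -2.995 (SE 0.10, adjusted p = 4.361e-13) in Nrf1 cells and -1.46 (SE 0.066, adjusted p = 1.352e-13) in Nrf2 cells.

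*Dhx58* encodes LGP2, a helicase without the signalling domains of the other two that modulates their activity. It had 35.9, 40.2 and 35.4 RPM in LacZ libraries, 2.73, 2.79 and 3.05 in Nrf1 libraries, and 12.0, 9.996 and 11.4 in Nrf2 libraries. The order of the groups was that of *Ddx58*, without overlap. The log2 fold change was -3.59 (SE 0.12, adjusted p = 7.059e-17) in Nrf1 cells and -1.65 (SE 0.095, adjusted p = 4.431e-12) in Nrf2 cells.

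Where a group mean reached 10, the ratio of the authors' group means in Nrf1 over LacZ was lower than that of *Ddx58* for 34 of 11451 genes, than that of *Ifih1* for 41 and than that of *Dhx58* for 19. In Nrf2 over LacZ the corresponding numbers were 133, 138 and 91 of 11628 genes.

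Ratios of reads within a library do not depend on the scaling between libraries. For every 100 *Ddx58* reads, the LacZ libraries held 42.0 ± 2.36 (SD, n = 3) *Ifih1* reads, the Nrf1 libraries 45.3 ± 7.45 and the Nrf2 libraries 42.6 ± 2.23. The Nrf1 value spread from 37.2 to 51.8 and covered the values of both other groups, so no difference was detectable at this depth. For *Dhx58* the same ratio was 14.5 ± 0.325 in LacZ, 10.02 ± 1.20 in Nrf1 and 12.9 ± 1.49 in Nrf2 libraries. The highest Nrf1 library, at 11.4 *Dhx58* reads, lay below the 3 LacZ libraries, whose lowest was 14.2, and just below the lowest Nrf2 library, which also rounds to 11.4.

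**Figure D2:**
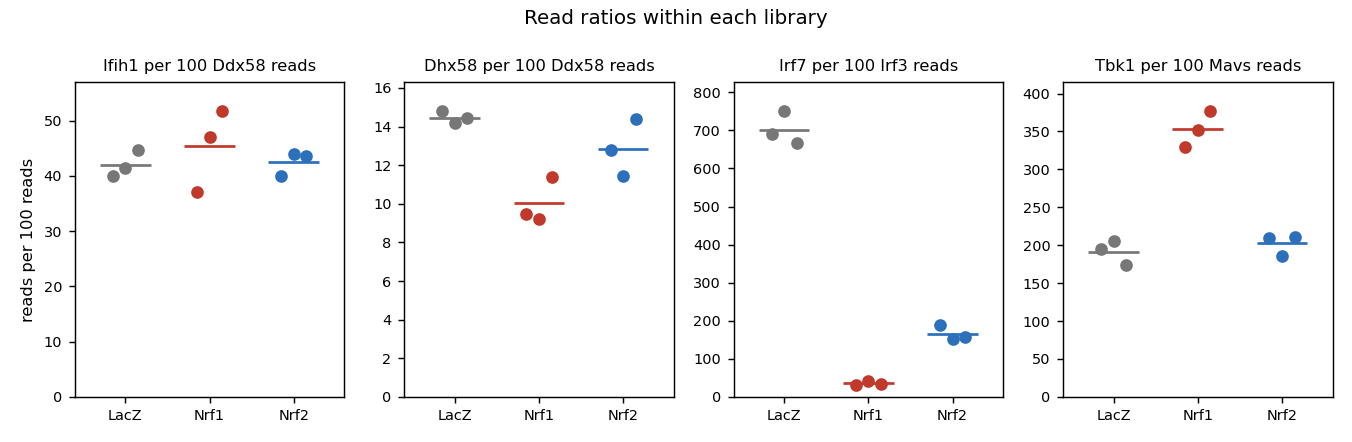
Reads of one gene per 100 reads of another within each library (linear axes from 0), for the LacZ, Nrf1 and Nrf2 groups. Points are libraries and horizontal lines are group means (n = 3); the *Ifih1* to *Ddx58* ratio overlaps between all groups, whereas *Irf7* to *Irf3* separates all 3 and *Tbk1* to *Mavs* is higher in Nrf1 libraries.

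Of the other receptors, *Tlr3* recognises double-stranded RNA inside endosomes and signals through another adaptor than MAVS. It had 17.4, 19.3 and 19.0 RPM in LacZ libraries, 8.08, 8.88 and 9.14 in Nrf1 libraries, and 11.2, 6.37 and 11.3 in Nrf2 libraries. Both factors gave levels below every LacZ library, but Nrf2 library b lay below all Nrf1 libraries and the other Nrf2 libraries above them. The log2 fold change was -1.02 (SE 0.11, adjusted p = 4.429e-08) in Nrf1 cells and -0.90 (SE 0.20, adjusted p = 0.004011) in Nrf2 cells.

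*Zbp1*, which senses left-handed nucleic acid and can lead to necroptosis, was near the limit of detection. Its libraries held 24, 35 and 21 reads in LacZ, 1, 6 and 0 in Nrf1, and 17, 7 and 11 in Nrf2, or 2.57, 4.26 and 2.67, then 0.0973, 0.599 and 0, then 1.43, 0.619 and 1.08 RPM. LacZ libraries were above all others, and the lowest Nrf2 library was just above the highest Nrf1 library. The log2 fold change was -3.60 (SE 0.55, adjusted p = 1.913e-05) in Nrf1 cells and -1.46 (SE 0.32, adjusted p = 5.17e-04) in Nrf2 cells. The size of the first depended on the pseudocount and on single Nrf1 libraries, being -4.10 with a pseudocount of 0.5, -2.25 with a pseudocount of 5, -4.35 without Nrf1 library b and -2.999 without Nrf1 library c, with the call kept in each.

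Neither adaptor was called against LacZ. *Mavs*, the mitochondrial adaptor of RIG-I and MDA5, had 27.8, 29.3 and 32.6 RPM in LacZ libraries, 28.4, 25.4 and 26.1 in Nrf1 libraries, and 30.7, 34.5 and 30.4 in Nrf2 libraries. Both groups overlapped with LacZ. The log2 fold change was -0.10 in Nrf1 cells (95% confidence interval -0.27 to 0.07, adjusted p = 0.2954) and 0.18 in Nrf2 cells (0.01 to 0.35, adjusted p = 0.0718), so changes as large as those of the helicases lay outside both intervals.

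*Tmem173* encodes STING, the adaptor of cytosolic DNA sensing. It had 6.85, 7.18 and 5.97 RPM in LacZ libraries, 4.18, 3.89 and 4.92 in Nrf1 libraries, and 5.12, 4.78 and 4.93 in Nrf2 libraries. All LacZ libraries were above all others. With Nrf1 the log2 fold change was -0.55 (SE 0.17, adjusted p = 0.007802), which is under the fold of 1.5, and with Nrf2 it was -0.34 (SE 0.16, adjusted p = 0.07773). The Nrf1 value lay so near the fold that *Tmem173* was called when LacZ library c was left out (-0.62), when Nrf1 library c was left out (-0.64) and when the comparison was re-centred on the median gene (-0.60).

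Expression of *Tbk1*, the kinase on which both adaptors converge, was 54.2, 60.1 and 56.9 RPM in LacZ libraries, 93.5, 89.7 and 98.6 in Nrf1 libraries, and 64.3, 64.2 and 64.3 in Nrf2 libraries. The groups did not overlap, with LacZ lowest and Nrf1 highest. The log2 fold change of 0.78 in Nrf1 cells (SE 0.056, adjusted p = 3.016e-11) passed the fold of 1.5 but not a fold of 2. In Nrf2 cells it was 0.26 (SE 0.057, adjusted p = 5.988e-04), under the fold. Within libraries there were 353 ± 24.0 (SD, n = 3) *Tbk1* reads per 100 *Mavs* reads in Nrf1, 191 ± 15.6 in LacZ and 202 ± 14.1 in Nrf2.

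The pair of transcription factors downstream of TBK1 did not move together. *Irf3*, which is held ready in the cytosol, had 55.2, 66.6 and 62.9 RPM in LacZ libraries, 72.7, 66.2 and 78.5 in Nrf1 libraries, and 56.8, 62.2 and 57.3 in Nrf2 libraries. In RPM both groups overlapped with LacZ. For Nrf1 this was only because its lowest library, at 66.2, lay just below the highest LacZ library, at 66.6. RPM is shifted by -0.06 (log2) in Nrf1 over LacZ against the size-factor scale of the fold changes. The log2 fold change of *Irf3* was 0.30 in Nrf1 cells (SE 0.069, adjusted p = 7.937e-04), under the fold, and 0.02 in Nrf2 cells (95% confidence interval -0.12 to 0.16, adjusted p = 0.7938).

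*Irf7*, the interferon-inducible factor that amplifies type I interferon, had 381, 500 and 419 RPM in LacZ libraries, 22.2, 27.3 and 26.8 in Nrf1 libraries, and 107, 93.9 and 90.5 in Nrf2 libraries. The groups were far apart and had the order of the helicases. Its log2 fold change of -4.02 in Nrf1 cells (SE 0.13, adjusted p = 9.311e-07) was the most negative of the 10 genes in this fit, although *Zbp1* was more negative with a pseudocount of 0.5, with voom and without Nrf1 library b. For *Irf7*, 11 of 11451 genes had a lower ratio of group means. In Nrf2 cells the value was -2.07 (SE 0.12, adjusted p = 4.362e-05), with 34 of 11628 genes lower. For every 100 *Irf3* reads there were 702 ± 44.1 (SD, n = 3) *Irf7* reads in LacZ libraries, 35.3 ± 5.46 in Nrf1 libraries and 166 ± 19.5 in Nrf2 libraries.

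The direct comparison of Nrf2 with Nrf1 cells asked whether the 2 factors left the genes at different levels. Here 5 of the 10 genes were higher in Nrf2 cells and 0 were lower (limma and voom; *Tbk1* and *Irf3* were lower at an unadjusted p under 0.05, as were 31.9% of genes tested), where 11.1% of 11486 genes were called higher and 4.63% lower. By the ratio of group means, the same 5 genes were more than 1.5-fold higher, where 12.3% of genes were higher and 5.16% lower. The helicases were higher with Nrf2, by a log2 fold change of 1.61 for *Ddx58* (SE 0.063, adjusted p = 1.002e-19), 1.53 for *Ifih1* (SE 0.095, adjusted p = 3.15e-14) and 1.94 for *Dhx58* (SE 0.15, adjusted p = 2.202e-12). *Irf7* was higher by 1.94 (SE 0.076, adjusted p = 5.222e-14). *Zbp1* was higher by 2.21 (SE 0.60, adjusted p = 0.002273), on 35 reads against 7. It passed the filter here only through its Nrf2 mean of 10.8, beside 2.38 in Nrf1 cells. That value was 2.99 without Nrf1 library b and 1.58 without Nrf1 library c, and *Zbp1* did not reach the filter on low values without Nrf2 library a.

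The other 5 genes did not pass both criteria in this comparison. *Tlr3* differed by 0.11 (95% confidence interval -0.27 to 0.50, adjusted p = 0.6171) and *Tmem173* by 0.21 (-0.14 to 0.55, adjusted p = 0.2982). *Mavs* at 0.27 (adjusted p = 0.002477), *Irf3* at -0.29 (adjusted p = 8.114e-05) and *Tbk1* at -0.53 (adjusted p = 3.243e-11) had small p-values with folds under 1.5, where 59.1% of genes tested had an adjusted p under 0.05. The libraries of the 2 groups did not overlap for 8 of the 10 genes, all but *Tlr3* and *Tmem173*, where 64.1% of genes tested showed no overlap. Against LacZ it was also 8 of 10 in RPM in each comparison, all but *Mavs* and *Irf3*, where 70.1% of genes showed no overlap in Nrf1 cells and 63.6% in Nrf2 cells.

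**Figure D3:**
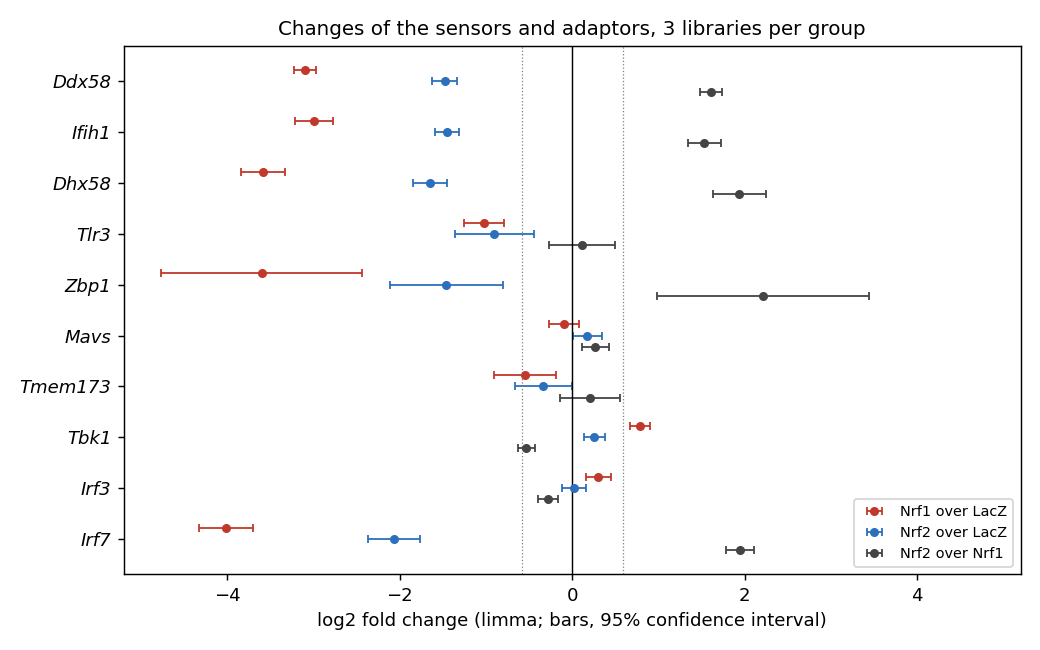
Log2 fold changes (limma, linear axis of log2 values) of the 10 genes in Nrf1 over LacZ, Nrf2 over LacZ and Nrf2 over Nrf1. Points are estimates, bars are 95% confidence intervals (3 libraries per group) and dotted lines mark a fold of 1.5; the intervals of *Ddx58*, *Ifih1*, *Dhx58* and *Irf7* lie beyond the dotted lines in all 3 comparisons, and those of *Mavs* and *Irf3* lie between them.

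LacZ library b had the highest value of the 3 LacZ libraries in all 6 of the genes that fell. Without it, the 6 genes were called lower in both comparisons as before. The spread within a group was largest for *Zbp1* in Nrf1 cells, at a coefficient of variation of 138%, and for *Irf7* in LacZ cells it was 14.1%, where counting alone would give 1.65%. For *Tbk1* in Nrf2 cells it was 0.108%, less than the 3.74% that counting alone would give.

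The genes were then set beside others of nucleic acid sensing, from a list of 90 symbols (some alternates for 1 gene), of which 71 had counts. Of 68 tested, 23 were lower and 5 higher in Nrf1 cells, with a median log2 fold change of -0.31. In Nrf2 cells 19 were lower and 3 higher, with a median of -0.29. Over all genes tested, 17.0% were called lower and 11.2% higher in Nrf1 cells, and 9.61% and 9.13% in Nrf2 cells. Between Nrf2 and Nrf1 cells, 13 of 67 were higher and 4 lower with Nrf2, where 11.1% of all genes tested were called higher and 4.63% lower. The same shares serve for the counts by role below. By role, 12 of 12 genes of the interferon-responsive output fell in Nrf1 cells and 11 of 12 in Nrf2 cells, with medians of -2.51 and -1.11. The exception was *Irf1*, with a log2 fold change of -0.57 in Nrf2 cells. Of 15 kinases, TRAFs and scaffolds, 1 fell in each comparison, the TBK1-related kinase *Ikbke*, by -0.70 (adjusted p = 0.00357) with Nrf1 and -0.74 (adjusted p = 0.00166) with Nrf2.

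In the output genes, *Rsad2*, which encodes the antiviral enzyme viperin, had 103, 152 and 134 RPM in LacZ libraries, 7.49, 7.68 and 10.5 in Nrf1 libraries, and 32.3, 27.5 and 27.3 in Nrf2 libraries. It had the largest change of the list in both comparisons, at -3.84 (SE 0.19, adjusted p = 5.494e-06) and -2.06 (SE 0.15, adjusted p = 9.026e-05). *Ifit3*, an interferon-induced protein with tetratricopeptide repeats, was second at -3.43 and -1.64, followed by the ubiquitin-like modifier *Isg15* at -3.26 in Nrf1 cells and by *Ifit2* at -1.50 in Nrf2 cells. For *Rsad2*, *Ifit3*, *Isg15* and *Ifit2* too, Nrf2 libraries lay between LacZ and Nrf1 libraries without overlap. Over all genes tested, 63.6% showed no overlap between Nrf2 and LacZ libraries and 64.1% between Nrf2 and Nrf1 libraries.

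Transcription factors that carry the interferon signal to the nucleus were lower as well. *Stat2* changed by -2.23 with Nrf1 and -1.07 with Nrf2, and *Irf9* by -2.33 and -1.04. Interferon beta itself, *Ifnb1*, was too low to be tested, with 0, 3 and 2 reads in LacZ libraries, 0 in each Nrf1 library, and 0, 3 and 1 in Nrf2 libraries.

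Among 8 other RNA receptors and RNA-binding enzymes, 5 were lower in Nrf1 cells and 4 in Nrf2 cells. *Eif2ak2*, the kinase PKR that halts translation on binding double-stranded RNA, had 450, 533 and 458 RPM in LacZ libraries, 168, 166 and 169 in Nrf1 libraries, and 247, 235 and 216 in Nrf2 libraries. Its log2 fold change was -1.45 with Nrf1 and -0.96 with Nrf2. The RNA-editing enzyme *Adar* changed by -1.28 and -0.79. The endosomal receptors of single-stranded RNA, *Tlr7* and *Tlr8*, changed by -2.95 and -1.92 with Nrf1, and by -0.999 and -0.36 with Nrf2, where *Tlr8* was not called. *Tlr7* was at 6.63, 10.7 and 6.98 RPM in LacZ libraries and at most 1.29 in Nrf1 libraries.

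Of 15 ubiquitin ligases and other regulators, 2 were lower with each factor, the RIG-I-activating ligase *Trim25* (-1.18 and -0.72) and the zinc-finger antiviral protein *Zc3hav1* (-1.15 and -0.72). *Riok3* (0.80) and *Tax1bp1* (0.64) were higher in Nrf2 cells. *Traf3*, a ligase between MAVS and TBK1, was not called, at 0.16 with Nrf1 and -0.28 with Nrf2. Of 7 genes of DNA sensing, 3 were higher in Nrf1 cells, namely the Ku subunits *Xrcc5* (1.27) and *Xrcc6* (1.27) and the RNA polymerase III subunit *Polr3c* (1.03), which have roles in DNA repair and transcription in all cells. *Xrcc6* was also higher in Nrf2 cells (1.09). A further 8 genes were listed as limiting the response to the cell's own nucleic acid, and not all of them encode nucleases. Of these, *Samhd1* (0.70) and *Skiv2l* (0.81) were higher and *Dnase2* (-0.80) and *Enpp1* (-1.41) lower in Nrf1 cells. In Nrf2 cells the log2 fold changes of all 8 lay between -0.58 and 0.27, under the fold. Of 3 genes around the endosomal receptors, *Cd14* was lower with both (-1.39 and -1.37), and it is also among the leukocyte markers below. The DNA sensors cGAS and AIM2 and the TLR3 adaptor *Ticam1* were looked for but are not among the genes tested. Of 15 listed symbols of DNA sensing, 7 had counts. Of 5 listed around the endosomal receptors, 4 had counts and 3 were tested.

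**Figure D4:**
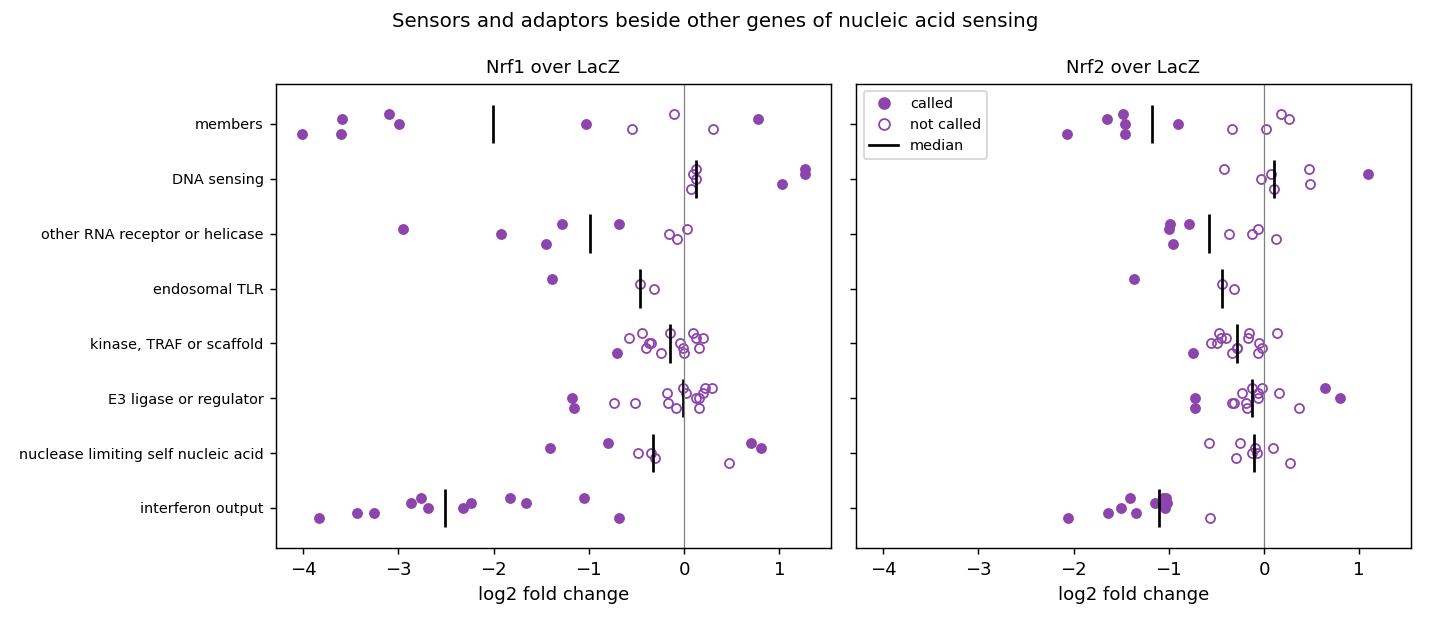
Log2 fold changes over LacZ (limma, the same linear axis in both panels) of the 10 genes (labelled members) and of the other genes of nucleic acid sensing, by role. Filled points were called, open points were not, and vertical lines are medians; 12 of 12 interferon output genes are filled on the lower side in Nrf1 cells and 11 of 12 in Nrf2 cells, whereas 1 of 15 kinases, TRAFs and scaffolds is filled in each.

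Genes with the most similar pair of log2 fold changes over LacZ were sought by Euclidean distance among the 8543 genes whose mean reached 100. The gene nearest to *Ddx58* was *Ifih1*, at a distance of 0.105, followed by *Ifi44* and *Parp9*, and 6 genes lay within 0.25 of it. *Ddx58* was in turn the nearest to *Ifih1*, which had 7 genes within 0.25. The nearest to *Dhx58* were *Ifit3*, *Mx1* and *Slfn3*, and those to *Irf7* were *Bst2*, *Rsad2* and RT1-T24-3. *Tlr3* and *Tbk1* had 99 and 462 genes within the same distance, and the nearest to them were *Cebpd* and *Psmb1*, a proteasome subunit. *Tmem173*, *Mavs* and *Irf3* had 690, 1332 and 1929. These numbers largely reflect the size of a gene's own change, because genes lie more densely near a change of 0. Both log2 fold changes also share the LacZ libraries.

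Markers of cells other than cardiomyocytes were lower in the same libraries as the sensors. Of 10 fibroblast markers, 9 fell in Nrf1 cells (median log2 fold change -1.76) and 8 in Nrf2 cells (-1.005), with summed levels of 13219 to 14171 RPM in LacZ, 3259 to 3514 in Nrf1 and 6529 to 7085 in Nrf2 libraries. Of 10 leukocyte markers, 9 fell in Nrf1 cells (-1.50) and 8 in Nrf2 cells (-1.18), with sums of 189.8 to 281 in LacZ, 105 to 108 in Nrf1 and 98.8 to 111 in Nrf2 libraries. LacZ library b had the highest sum of both lists. It also had the lowest cardiomyocyte marker sum of the LacZ libraries, 13198 RPM against 15036 in library a and 14078 in library c. Of 8 endothelial markers, 6 fell in Nrf1 cells (-0.90) and 5 in Nrf2 cells (-0.88), with sums of 451 to 461, 258 to 263 and 231 to 264. Over all genes tested, 17.0% were called lower in Nrf1 cells and 9.61% in Nrf2 cells.

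The fibroblast sum, like the helicases and *Irf7*, was lowest with Nrf1 and intermediate with Nrf2, whereas the leukocyte and endothelial sums of the Nrf1 and Nrf2 libraries overlapped. Sums rest mostly on the most abundant markers. By single markers in Nrf2 over Nrf1, 5 of 10 fibroblast markers were called higher and 1 lower. For leukocyte markers it was 3 of 10 higher and 0 lower, and for endothelial markers 1 of 8 and 0. Over all genes tested, 11.1% were called higher and 4.63% lower. Cardiomyocyte markers were abundant in all libraries, with sums of 13198 to 15036 in LacZ, 14045 to 14178 in Nrf1 and 15219 to 15560 in Nrf2. Of 8 markers 2 rose and 2 fell in Nrf1 cells, where 11.2% of all genes tested were called higher and 17.0% lower. In Nrf2 cells the fold stayed under 1.5 for all 8, and 6 had an adjusted p under 0.05, where 55.2% of all genes tested did. No marker was at 0 in any group. The part of these other cells in the lower levels of the sensors was not tested.

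**Figure D5:**
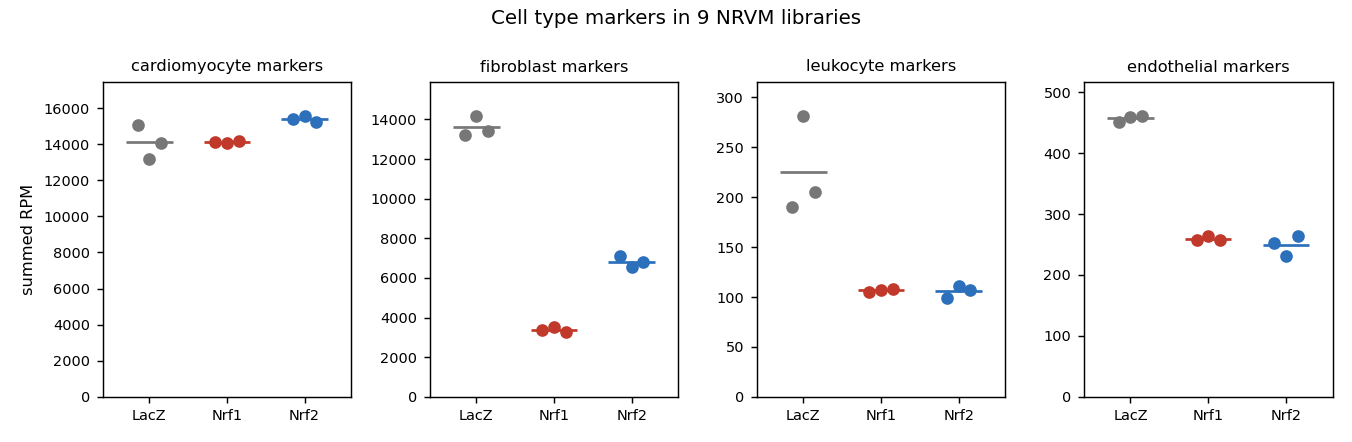
Summed RPM (linear axes from 0, each with its own scale) of the cardiomyocyte, fibroblast, leukocyte and endothelial marker lists in each library. Points are libraries and horizontal lines are group means (n = 3); fibroblast markers are highest in LacZ (13219 to 14171), lowest in Nrf1 (3259 to 3514) and between them in Nrf2 (6529 to 7085).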

How the data were processed

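RNA of 9 NRVM libraries was sequenced by the authors. According to the labels and the study's methods, reads were aligned to rat Rnor_6.0 with HISAT2 2.0.4, duplicates were removed with SAMtools 0.1.18, genes were counted with featureCounts 1.6.0, and the authors named edgeR 3.20.5 for the comparisons. GEO's organism field names mouse, whereas its cell type and strain labels name rat. The authors deposited, for each pair of groups, group means of size-factor-normalised counts, here a signal without values of single libraries. Their fold change and p-value columns were not used.

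Each mean is a sum of 3 whole counts times 3 steps visible in the lowest means, and each group occurs in 2 tables, so the counts were solved from 2 equations. Exactly 1 solution was found for 14678 of 14679 LacZ genes and for all 14579 Nrf1 and 14746 Nrf2 genes. Median-of-ratios size factors recomputed from these counts differed from those in the means by at most 0.00787%. Library letters follow the size factor and are not the submitters' numbers. RPM differs from the size-factor scale by -0.06 (log2) in Nrf1 over LacZ, -0.09 in Nrf2 over LacZ and -0.01 in Nrf2 over Nrf1.

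limma 3.58.1 (trend, robust) in R 4.3.3 was fitted to each pair of groups on genes whose mean reached 10 in 1 group or both, with a pseudocount of 1, after checks on simulated data. Intervals of 95% are limma's. The alternatives were other pseudocounts, filters, folds, size factors, a joint fit, voom and leaving out each library. The named genes were the 10 members, the 3 listed genes with the largest change in each comparison with LacZ (mean of at least 100), fixed sensor and adaptor genes, and up to 3 nearest genes per member; *Adar*, *Tlr7*, *Tlr8*, *Stat2*, *Irf9*, *Irf1*, *Zc3hav1*, *Riok3*, *Tax1bp1*, *Xrcc5*, *Xrcc6*, *Polr3c*, *Samhd1*, *Skiv2l*, *Dnase2*, *Enpp1* and *Cd14* were named after their values were seen. The members and lists were chosen with earlier results of these data known. Some genes of the lists are counted but not reported singly here. Sequences were not used here, because the reference at hand was of the mouse.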

Additional observations from a re-analysis of the deposited data

How the results depend on the processing

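The 6 genes called lower in Nrf1 and in Nrf2 cells kept that direction under each alternative that gave a value. At a mean of at least 100 *Zbp1* was not tested, which left 5 lower in each and, in Nrf2 over Nrf1, 4 higher. Among the results of single genes 467 kept direction and side of the threshold, 9 passed it newly, 2 no longer passed it and 4 turned direction. The 2 lost were *Tbk1* in Nrf1 cells (0.78) and *Tlr3* in Nrf2 cells (-0.90) at a fold of 2. The 4 that turned were below the threshold throughout: *Irf3* in Nrf2 over LacZ ranged from -0.0491 to 0.0751 when 1 library was left out and was below 0 without LacZ library a or Nrf2 library b, and *Tlr3* in Nrf2 over Nrf1 ranged from -0.0289 to 0.383 and was below 0 without Nrf2 library a or c. With no fold required, 8 members were called in Nrf2 over Nrf1, 6 higher and 2 lower. The median log2 ratio of the members' group means became -1.59 in Nrf1 over LacZ and 0.68 in Nrf2 over Nrf1 with a pseudocount of 5, and 1.53 in the latter over members with a mean of at least 100.

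The share of all genes past 1.5-fold became 11.9% lower (Nrf1 over LacZ), 6.65% lower (Nrf2 over LacZ) and 7.50% higher (Nrf2 over Nrf1) at a mean of at least 100, and 15.6% higher (Nrf2 over LacZ) and 8.72% lower and 20.1% higher (Nrf2 over Nrf1) without a filter. In Nrf1 over LacZ limma called 1281 genes higher and 1944 lower, against 3930 and 3725 with no fold required, 460 and 1069 at a fold of 2, and 982 and 1015 at a mean of at least 100. In Nrf2 over LacZ the counts were 1059 and 1115, against 3335 and 3070, 515 and 451, and 654 and 566. In Nrf2 over Nrf1 they were 1272 and 532, against 3328 and 3460, 633 and 133, and 634 and 362. The voom fit called the same members as the fit reported in each comparison. For the limma calls, voom, the fold of 2 and the re-centring were added after seeing the data. No paired analysis was possible because the recovered libraries carry no replicate number. *Zbp1* and *Dhx58* in Nrf1 cells rest on 7 and 82 reads, which limits their fold changes.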
